A study of Mus musculus with 20 samples.

Results

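The red cell membrane is stabilised by a skeleton of spectrin and short actin filaments that is tied to transmembrane proteins, and 8 genes of this structure, *Slc4a1*, *Sptb*, *Ank1*, *Rhag*, *Rhd*, *Kel*, *Tmod1* and *Ermap*, were followed here. They were chosen by symbol out of 24315 genes, and all 8 were found in the tables of both cell types. RNA was measured by polyA sequencing of 2 populations sorted from the bone marrow of C57BL/6 mice, LSK cells (Lin-Sca1+Kit+, stem and multipotent progenitors) and MEPs (megakaryocyte-erythroid progenitors, Lin-Sca1-Kit+CD34- and low or negative for FcγRII/III). Each population comprised 10 libraries, 3 of WT mice with untargeted genes, 3 of *Dnmt3a*-/- mice, 2 of *Bcor*-/- mice and 2 of *Bcor*-/-*Dnmt3a*-/- mice, which are called double knockout below. Floxed alleles were deleted by *Mx1-Cre*, an interferon-inducible recombinase that is switched on by pIpC and acts in several tissues, and the *Bcor* deletion removes internal exons and shifts the reading frame. The names of all mutant libraries carry Cre and those of the WT libraries do not. WT libraries are named 3A_XY_WT, *Dnmt3a*-/- ones 3A_XY_Cre, *Bcor*-/- ones WT_BCOR_Cre and double knockout ones 3A_BCOR_Cre. These names are not explained in the sources used here. If Cre marks carriers, its effect cannot be told apart from that of genotype. The study calls the double knockout mice of its expression comparison leukemic, a stage that the sample labels do not carry, so genotype and disease cannot be told apart in them. The age of the sequenced mice is not given in the sources used here, and the label of *Bcor*-/- replicate 1 names 2 mice in each cell type. LSK and MEP libraries with the same genotype and replicate came from the same mouse or, for that replicate, the same pair of mice. Values are FPKM, a unit per length of transcript and per number of fragments, so levels of different genes can be set side by side. The scaling options behind the tables are not given in the sources used here, and the summed FPKM of a library ran from 413482 to 522688 in LSK cells and from 424662 to 625758 in MEPs. The sequencing depth is unknown.

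The targeted genes and the sorting markers were checked first. *Bcor* had 22.4 to 23.2 FPKM in *Bcor*-/- LSK cells against 29.5 to 32.4 in WT, and 24.0 to 37.4 in double knockout LSK cells, so the level over the whole gene, most of which the deletion leaves in place, does not check the label. The paper describes the mRNA left by the deletion as highly unstable and reports none detected by PCR in *Bcor*-/- LSK cells. The cause of the gap to the levels here was not tested. *Dnmt3a* had 10.4 to 10.9 FPKM in double knockout LSK cells and 11.3 to 16.9 in *Dnmt3a*-/- LSK cells, against 16.1 to 19.8 in WT. *Bcor*-/- LSK cells, in which *Dnmt3a* was not targeted, had 13.9 to 14.1, inside the *Dnmt3a*-/- range, so this level does not check the *Dnmt3a*-/- label. In MEPs *Dnmt3a* had 3.44 and 6.85 FPKM in the double knockout, on both sides of the 5.49 to 6.64 in WT, and 2.56 to 5.40 in *Dnmt3a*-/-, and *Bcor* overlapped between double knockout (19.6 and 26.7) and WT (21.3 to 26.9), so these levels do not check the labels there. *Kit*, on which both gates select, lay between 148 and 174 FPKM in WT LSK cells and at 47.7 and 19.4 in the double knockout ones, and between 77.0 and 83.5 in WT MEPs and at 38.1 and 20.2 in the double knockout ones. Of 7 stem and multipotent progenitor markers, among them *Ly6a*, *Cd34*, *Flt3*, *Mecom*, *Hlf* and *Procr*, 6 were below every WT library in each double knockout LSK library and none of the 7 was listed at 0. *Ly6a*, which encodes Sca1, was the exception with 63.5 and 220 FPKM against 59.8 to 70.7 in WT. The 2 double knockout mice stood apart from one another. Replicate 1 held 5 of 5 macrophage markers above every WT library in both cell types, with a summed level of 1122 FPKM in LSK cells and 612 in MEPs against 27.5 to 219 and 1.54 to 2.86 in WT, while replicate 2 had 33.4 and 7.28. The 4 B cell markers summed to 2212 and 1054 FPKM in double knockout LSK cells against 38.2 to 79.4 in WT.

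Band 3, the anion exchanger encoded by *Slc4a1*, is the most abundant membrane protein of the red cell and exchanges chloride for bicarbonate. Ankyrin (*Ank1*) fastens it to β-spectrin (*Sptb*), the skeleton's flexible rod, and tropomodulin (*Tmod1*) caps the short actin filaments at which spectrin tetramers meet. A further link runs through the Rh complex, made of the Rh-associated glycoprotein (*Rhag*) and the Rh protein (*Rhd*). *Kel*, a zinc endopeptidase that carries the Kell antigens, and *Ermap*, an immunoglobulin-like protein that carries the Scianna antigens, are blood group proteins of the erythroid lineage. Transcription of many erythroid genes depends on factors that bind GATA or CACCC sequences, and for this reason the start regions of the genes were inspected.

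Start regions of 6 of the 8 genes (*Sptb*, *Rhag*, *Rhd*, *Kel*, *Tmod1* and *Ermap*) were found in a RefSeq table of GRCm38.p6, which spans 250 bases before to 50 bases after each listed start and is of another build than mm9, the one named in the submitters' processing notes. The GATA letters searched were AGATAA and TGATAA on either strand. They occurred in 4 of these 6 windows, and in 18.6% of the 32851 windows of the table. The letters CACCC, on either strand, occurred in 6 of 6 windows and in 57.5% of all windows. The letters were chosen after the sequences had been seen, and a match is a description and not evidence of a bound factor. The 4 stretches with a GATA match are shown because GATA factors bind such letters in erythroid genes, with these letters or their reverse complements in capitals, 5′ to 3′ on the strand of the gene.
*Rhd*, chr4:134864456-134864535, plus strand: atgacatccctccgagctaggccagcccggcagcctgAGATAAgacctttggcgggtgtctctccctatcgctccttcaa
*Kel*, chr6:41704339-41704405, minus strand: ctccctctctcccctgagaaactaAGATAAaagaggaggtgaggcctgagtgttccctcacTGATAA
*Ermap*, chr4:119190014-119190075, minus strand: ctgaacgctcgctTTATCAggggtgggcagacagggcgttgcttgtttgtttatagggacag
*Rhag*, chr17:40811106-40811135, plus strand: agtcctctgctcTTATCAacactatacagc
In *Kel* the 2 matches end 51 and 14 bases before the listed start, in *Rhd* the match ends 38 bases before it, in *Ermap* 62 and in *Rhag* 26. These distances are to the listed start only. The *Rhag* match lies inside the RefSeq gene, and an annotated *Kel* transcript begins at the second *Kel* match. In *Sptb* and *Tmod1* these GATA letters were not in the window. Among 25 matched genes of a wider list of red cell membrane genes, described below, 8 had the GATA letters in a window, against 21% of the 27025 genes of the table.

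In WT mice all 8 genes were low in LSK cells and, with the exception of *Tmod1*, much higher in MEPs. How the 2 tables were scaled is not given in the sources used here. Levels in LSK cells and MEPs are therefore set side by side without a test. In WT LSK cells mean levels ran from 4.98 ± 1.7 FPKM for *Ermap* (SD, n = 3) over *Rhd*, *Slc4a1*, *Rhag*, *Kel*, *Ank1* and *Sptb* down to 0.859 ± 0.106 for *Tmod1*, and the ranges of all neighbours in this order overlapped. In WT MEPs *Ermap* (248 ± 29.4 FPKM) and *Rhd* (239 ± 78.0) led and overlapped, followed by *Rhag* (133 ± 25.8), by *Kel* (70.6 ± 13.8) and *Ank1* (64.4 ± 11.6), by *Sptb* (30.9 ± 8.46) and *Slc4a1* (19.3 ± 11.7), and by *Tmod1* (1.53 ± 0.339). Between these groups of overlapping neighbours the ranges were apart. At these levels 97.9% of the genes tested in MEPs lay below *Ermap* and 97.7% below *Rhd*, but 57.4% below *Slc4a1* and 8.7% below *Tmod1*. The blood group and Rh transcripts of WT MEPs thus stood far above those of band 3 and of tropomodulin. Every WT MEP library was above every WT LSK library for 8 of 8 genes, which holds for 29.4% of the genes tested. Within the same mouse the ratio of the MEP to the LSK level was 27.2 to 119 for *Rhd*, 41.4 to 93.5 for *Rhag*, and 2.45 to 13.9 for *Slc4a1*. For *Tmod1* it was 1.16 to 2.18, so the MEP gate was barely richer in this transcript than the LSK gate.

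**Figure D1:**
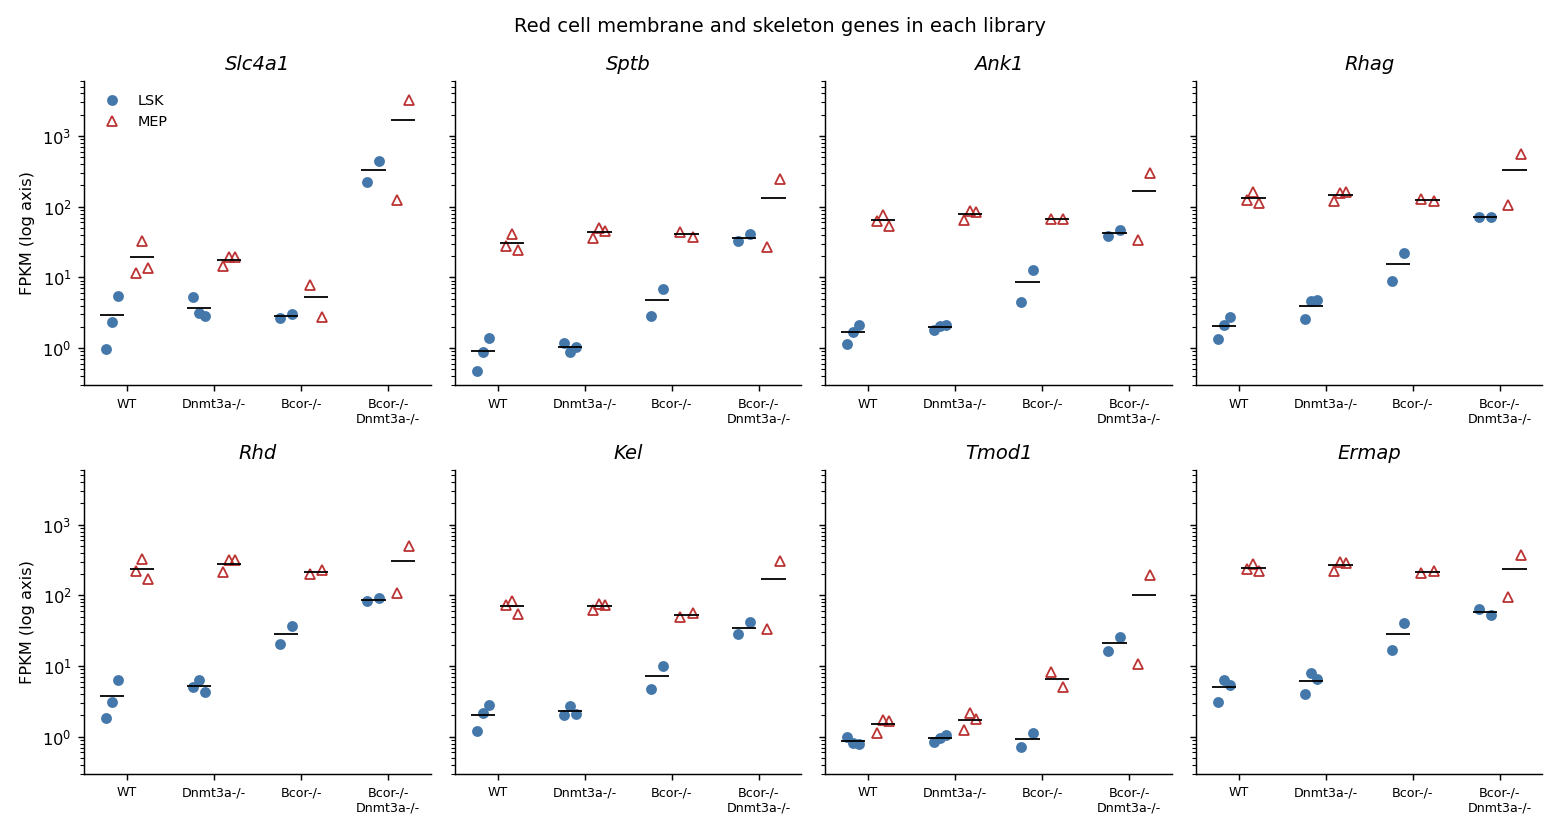
FPKM (log axis) of the 8 genes in every library, by genotype, with filled circles for LSK cells, open triangles for MEPs and bars at the group mean. The double knockout LSK libraries lie above every WT LSK library in each panel, while the 2 double knockout MEP libraries lie far apart, from 4.0-fold for *Ermap* to 26.0-fold for *Slc4a1*.

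Does loss of both genes change these transcripts in LSK cells? All 8 were higher in both double knockout LSK libraries than in any WT library. *Slc4a1* had 0.959, 2.35 and 5.47 FPKM in WT, against 223 and 437 in the double knockout, a log2 fold change of 6.49 ± 0.47 (SE) on the scale of FPKM + 1 (limma, Benjamini-Hochberg adjusted p = 4.68e-05). *Ank1* had 1.16, 1.69 and 2.15 FPKM in WT, against 38.2 and 46.2 in the double knockout (log2 fold change 4.03 ± 0.34, adjusted p = 8.13e-05). *Sptb* had 0.467, 0.878 and 1.39 against 32.6 and 40.8 (4.32 ± 0.32, adjusted p = 4.88e-05). The transcripts of ankyrin and of its partners β-spectrin and band 3 thus were all higher, and that of band 3 was the highest of the 8 in both libraries. *Tmod1* went from 0.981, 0.805 and 0.792 FPKM to 16.3 and 25.6. Genes averaging under 1 FPKM in the 10 libraries of a cell type were not tested, and *Tmod1* passed this filter only through the double knockout, since its mean over the other 8 LSK libraries was 0.911. Its LSK levels are therefore given as a description, with no test, and it is left out of the counts of calls in LSK cells given here.

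The Rh complex and the blood group genes rose as well. *Rhag* had 1.34, 2.14 and 2.71 FPKM in WT LSK cells, against 70.6 and 70.8 in the double knockout (log2 fold change 4.58 ± 0.36, adjusted p = 6.71e-05). *Rhd*, its partner, had 1.85, 3.09 and 6.32 against 82.0 and 91.6 (4.32 ± 0.37, adjusted p = 8.71e-05). *Kel* had 1.22, 2.14 and 2.79 against 28.0 and 41.6 (3.56 ± 0.32, adjusted p = 0.000115). *Ermap*, the highest of the 8 in WT, had 3.09, 6.39 and 5.47 against 64.6 and 53.5 and showed the smallest log2 fold change, 3.36 ± 0.39 (adjusted p = 0.000337). Calls required a limma p under 0.05 before adjustment together with a change of over 1.5-fold, and by this rule 15.0% of the 11952 genes tested were higher in double knockout LSK cells, against 7 of the 7 members other than *Tmod1*. The median log2 fold change of the 7 was 4.32, while that of all genes tested was 0.02. Both double knockout libraries were above all 3 WT libraries for 25.5% of the genes tested. The exact permutation test, two-sided, gave p = 0.1 for each of the 7, the smallest value that 2 libraries against 3 allow.

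Other erythroid and non-erythroid transcripts moved along with them. All 6 erythroid markers (*Klf1*, *Gata1*, *Epor*, *Alas2*, *Hba-a1* and *Tfrc*) were above every WT library in both double knockout LSK libraries, and their summed level was 2228 and 7613 FPKM against 59.5 to 95.9 in WT. As given above, 6 of 7 stem cell markers were lower in the same libraries, and macrophage markers were higher in replicate 1. Of 4 B cell markers 3 were called higher, *Cd79a* and *Cd79b* among them, while *Vpreb1* had 878 FPKM in replicate 1 and 1.88 in replicate 2 against 3.26 to 16.4 in WT. Of 5 megakaryocyte markers 3 were called lower (*Pf4*, *Itga2b* and *Gp9*). Of 4 T and NK cell markers *Nkg7* was called lower, and *Cd3e*, *Cd3d* and *Gzma*, which passed the filter only through the double knockout, had means of 14.2, 23.0 and 15.7 FPKM against 0.223, 0.577 and 1.10 in WT. In bulk RNA a change in the share of cells of a type cannot be told apart from a change in RNA per cell, and the part of these other populations in the result was not tested. Replicate 2 exceeded the WT mean of the 8 genes by 10.7-fold (*Ermap*) to 149-fold (*Slc4a1*), and replicate 1 by 13.0-fold (*Ermap*) to 76.2-fold (*Slc4a1*). Without replicate 1 the log2 fold changes of the 7 tested members were 3.23 (*Ermap*) to 6.97 (*Slc4a1*) and without replicate 2 they were 3.29 (*Kel*) to 6.00 (*Slc4a1*), and in both cases 7 of 7 were called, where 20.3% and 16.2% of the genes tested were called higher.

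**Figure D2:**
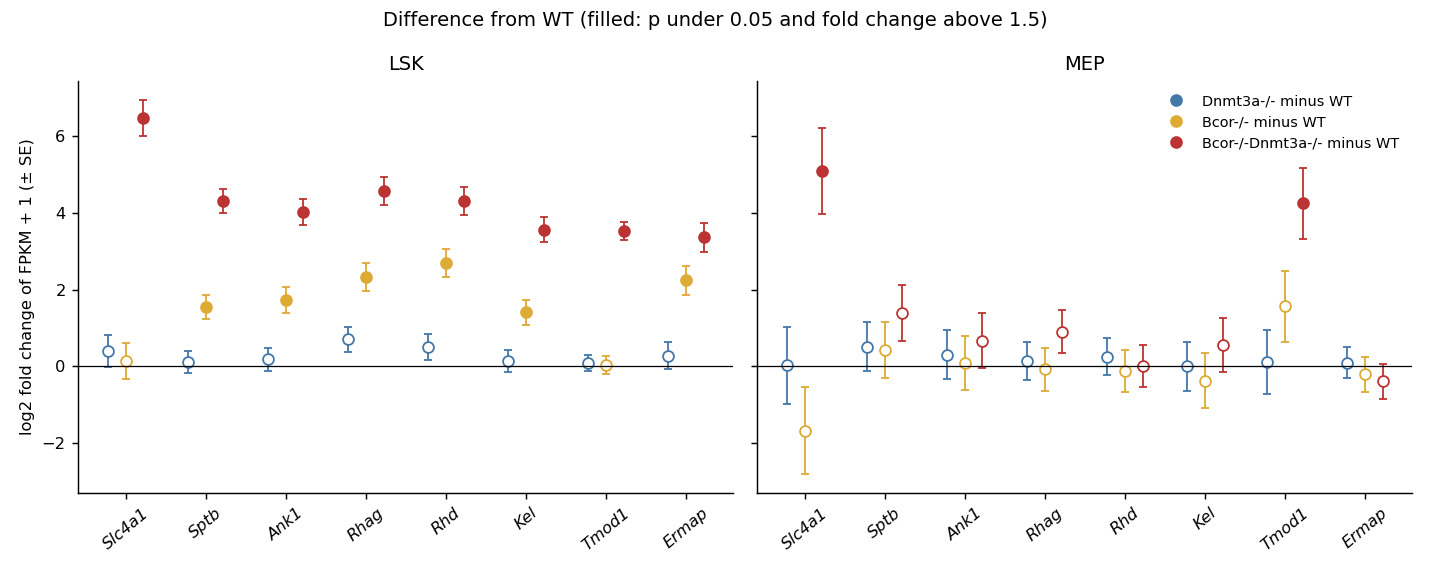
Log2 fold change of FPKM + 1 against WT with its standard error, in LSK cells (left) and MEPs (right), for *Dnmt3a*-/-, *Bcor*-/- and double knockout mice, with filled symbols for genes past the call rule. In LSK cells the symbols of 8 genes are filled in the double knockout, that of *Tmod1* for a gene that passed the filter only through these libraries, and 6 in *Bcor*-/-, and in MEPs only *Slc4a1* and *Tmod1* are called in the double knockout.

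Loss of *Bcor* alone raised 6 of the 7 tested members in LSK cells, all but *Slc4a1*. *Rhd* had 20.5 and 37.0 FPKM in *Bcor*-/- LSK cells, above the 3 WT libraries (log2 fold change 2.70 ± 0.37, limma adjusted p = 0.0125). *Rhag* had 8.84 and 22.4 (2.33 ± 0.36, adjusted p = 0.0154), and *Ermap* 17.1 and 40.6 (2.24 ± 0.39, adjusted p = 0.0187). The Rh and Scianna transcripts showed the largest changes, with replicate 2 higher than replicate 1 throughout. *Ank1* had 4.53 and 12.8 FPKM (1.73 ± 0.34, adjusted p = 0.0248). *Sptb* had 2.85 and 6.82 (1.55 ± 0.32, adjusted p = 0.0269), and *Kel* 4.69 and 10.02 (1.41 ± 0.32, adjusted p = 0.0374). For each of these 6 both *Bcor*-/- libraries were above all WT libraries, which held for 27.1% of the genes tested, and 7.20% of the genes tested were called higher. *Slc4a1*, the gene with the largest double knockout change, had 2.67 and 3.01 FPKM, inside the WT range (log2 fold change 0.14 ± 0.47, adjusted p = 0.893). *Tmod1* had 0.708 and 1.13 FPKM, on both sides of WT. In these libraries 3 of 6 erythroid markers were called higher, and so were 3 of 6 granulocyte markers, *Elane*, *Mpo* and *Prtn3* of neutrophil precursors. The other 3, *S100a8* (0.96), *S100a9* (0.43) and *Ngp* (-0.52), overlapped with WT, and the summed level of the 6 was 15521 to 22389 FPKM against 3098 to 11980 in WT. All 7 stem and multipotent progenitor markers had log2 fold changes below 0, and 3 were called lower, *Mecom* (-1.20, adjusted p = 0.0205), *Flt3* (-1.01, adjusted p = 0.0272) and *Hlf* (-1.01, adjusted p = 0.153). Of 4 T and NK cell markers *Nkg7* was called higher. The other 3 had log2 fold changes below 0 and passed the filter only through the double knockout. The part of these populations in the result was not tested. Without *Bcor*-/- replicate 2 the 6 genes were still called at the unadjusted p, where 4.72% of the genes tested were called higher, with log2 fold changes of 0.93 to 2.29, but their limma adjusted p-values were 0.191 to 0.353.

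The double knockout LSK cells were above the *Bcor*-/- ones for 7 of the 7 members other than *Tmod1*, with no overlap between libraries, which 28.1% of the genes tested showed. By the call rule 15.8% of the genes tested were higher, against 7 of the 7 members other than *Tmod1*. The difference was widest for *Slc4a1*, which *Bcor* loss alone had not raised (log2 fold change 6.35 ± 0.51, adjusted p = 0.000145). *Tmod1*, described without a test, had 16.3 and 25.6 FPKM against 0.708 and 1.13. *Sptb* differed by 2.77 ± 0.35 and *Ank1* by 2.30 ± 0.37 (adjusted p = 0.000764 and 0.00243). *Rhag*, *Kel* and *Rhd* differed by 2.24, 2.15 and 1.62 (adjusted p = 0.0038, 0.00263 and 0.0176). *Ermap* had the smallest difference, 1.12 ± 0.42, which was called at the unadjusted p and not at the adjusted one (adjusted p = 0.0753). With 1 library left out it ranged from 0.52 to 1.72. When only these 2 genotypes were fitted, limma adjusted p-values were 0.0827 for *Slc4a1*, 0.0904 for *Sptb*, 0.118 for *Ank1*, 0.111 for *Rhag* and 0.107 for *Kel*. Both comparisons of the double knockout use the same 2 libraries, and for 2 libraries against 2 the smallest p of an exact permutation test is 0.333.

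In *Dnmt3a*-/- LSK cells none of the genes was called, at a background of 0.443%, and the libraries of both genotypes overlapped for all 8, while every *Dnmt3a*-/- library was above WT for 4.63% and below WT for 4.98% of the genes tested. The largest difference was that of *Rhag*, a channel-like glycoprotein, with 2.58, 4.66 and 4.73 FPKM against 1.34 to 2.71 in WT (log2 fold change 0.70 ± 0.33, limma adjusted p = 1). The other 7 log2 fold changes were 0.08 to 0.49. In *Dnmt3a*-/- MEPs none was called either, at a background of 0.412%, and all 8 overlapped (5.12% of the genes tested were above WT and 5.27% below it in every library), with log2 fold changes from -0.002 for *Kel* to 0.51 for *Sptb*. At an unadjusted p under 0.05 without the fold threshold the count was likewise 0 in both cell types. The share of all genes at that threshold is not given here, so this count is not set against a background. Without WT replicate 3, 2 genes, *Slc4a1* and *Rhd*, were called higher in LSK cells, and without *Dnmt3a*-/- replicate 1 it was 1, *Rhag*, where 0.225% and 0.217% of the genes tested were called higher.

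MEPs of the double knockout showed another pattern, in which the 2 mice differed. *Slc4a1* had 11.7, 32.7 and 13.4 FPKM in WT MEPs, against 123 and 3195 in the double knockout (log2 fold change 5.10 ± 1.13, limma adjusted p = 0.0105). *Tmod1* had 1.14, 1.75 and 1.70 against 10.7 and 194 (4.25 ± 0.93, adjusted p = 0.00994). These 2 genes, for band 3 and the actin cap, were above all WT libraries in both mice and were the only ones of the 8 called, at a background of 18.5% called higher. Both libraries lay above WT for 24.6% of the genes tested. Over all genes 2019 were called higher and 1357 lower, which became 1461 and 2277 with quantile normalization and 1565 and 2142 with median centring, under which *Slc4a1* and *Tmod1* were still the only ones of the 8 called.

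For the other 6 genes replicate 1 and replicate 2 fell on opposite sides of WT or nearly so. *Ank1* had 62.6, 76.8 and 53.7 FPKM in WT MEPs, against 33.7 and 304 in the double knockout (log2 fold change 0.67 ± 0.71, adjusted p = 0.491). *Kel* had 74.0, 82.4 and 55.4 against 33.8 and 309 (0.55 ± 0.72, adjusted p = 0.577). *Rhag* averaged 133 ± 25.8 in WT (SD, n = 3) against 107 and 565, which lay below and above every WT library (0.90 ± 0.56, adjusted p = 0.241). Replicate 1 was thus the lowest and replicate 2 the highest library of the 5 for each of these genes. The same held for *Rhd*, with 221, 325 and 172 against 109 and 499.5 FPKM (0.02 ± 0.55, adjusted p = 0.984). *Ermap* had 238, 281 and 225 against 93.6 and 374 (-0.40 ± 0.46, adjusted p = 0.533). *Sptb* had 28.0, 40.5 and 24.4 against 26.6, inside the WT range, and 243 (1.39 ± 0.73, adjusted p = 0.169). Replicate 2 was above every WT library for 8 of 8 genes, as were 41.8% of the genes tested, and replicate 1 was below for 5 of 8, as were 41.6%.

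The fit without one or the other of these mice gave different answers. Without replicate 1, 8 of 8 genes were called higher, as were 23.0% of the genes tested in that fit, with log2 fold changes from 0.60 for *Ermap* to 7.44 for *Slc4a1*. Without replicate 2, *Slc4a1* (2.76) and *Tmod1* (2.22) were called higher and 4 genes were called lower, *Ermap* (-1.39), *Rhd* (-1.07), *Kel* (-1.02) and *Ank1* (-0.90), where 21.3% of the genes tested were called higher and 14.2% lower. In these fits the lone double knockout library is assumed to vary like the other groups. The levels of replicate 2 exceeded those of replicate 1 by 4.0-fold (*Ermap*), 4.58-fold (*Rhd*), 5.30-fold (*Rhag*), 9.0-fold (*Ank1*), 9.15-fold (*Kel*), 9.16-fold (*Sptb*), 18.2-fold (*Tmod1*) and 26.0-fold (*Slc4a1*). Among all genes tested in MEPs, 11.8% were more than 2-fold higher in replicate 2 on the scale of FPKM + 1. In LSK cells the same ratio of the 2 mice ran from 0.828 for *Ermap* to 1.96 for *Slc4a1*. Of the 6 erythroid markers, 5 were above WT in MEPs of replicate 2, whose summed level was 61572 FPKM. In MEPs of replicate 1, 2 were above WT and 3 below it, and the summed level was 1529, against 728 to 1037 in WT. The macrophage and B cell markers of MEPs were highest in replicate 1, with sums of 612 and 1719 FPKM, and the granulocyte markers in replicate 2, with 13689 FPKM against 6247 in replicate 1 and 279 to 690 in WT. Of 5 megakaryocyte markers, 5 were below WT in replicate 1, and in replicate 2 it was 2, with 1 above. Their sums were 18.0 and 66.0 FPKM against 83.6 to 323 in WT, and *Pf4* was called lower (-3.99, limma adjusted p = 0.00212). *Gzma* of the T and NK cell markers was called higher (3.19, limma adjusted p = 0.00886). *Cd3d*, which passed the filter only through the double knockout, had a mean of 4.30 FPKM against 0.285 in WT. The part of these populations in the values of the 2 mice was not tested.

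In *Bcor*-/- MEPs none of the 8 genes was called, at a background of 2.76%, and 3 had libraries that did not overlap with WT. *Tmod1* had 8.21 and 5.05 FPKM against 1.14 to 1.75 in WT (log2 fold change 1.57 ± 0.93, limma adjusted p = 1), and *Slc4a1* had 7.78 and 2.72 against 11.7 to 32.7 (-1.68 ± 1.13, adjusted p = 1). The exact permutation test, two-sided, gave p = 0.1 for each, the smallest it can give. *Ermap* had 205 and 222 against 225 to 281 (-0.21 ± 0.46). In the same libraries the erythroid markers *Alas2* (1.91 and 1.49 FPKM against 4.45 to 15.2) and *Tfrc* (153 and 152 against 204 to 210.5) lay below WT and were not called, while the other 4 of 6 overlapped with it. Of 6 granulocyte markers *Elane* (2.54), *Mpo* (2.19) and *Prtn3* (2.02) were called higher and *S100a8* (-1.10) lower, with limma adjusted p-values of 0.605 to 0.885. Their part in the values of the 8 genes was not tested. Both *Bcor*-/- libraries were above WT for 14.7% and below WT for 16.1% of the genes tested. The standard errors of this comparison include the spread of the double knockout MEPs, which share the fit. When only *Bcor*-/- and WT MEPs were fitted, *Tmod1* was called higher (adjusted p = 0.108) and *Slc4a1* lower (adjusted p = 0.343). With a variance for each genotype both were called as well (adjusted p = 0.0382 and 0.138). Of the genes tested, 1.98% were called higher and 2.12% lower in the first fit, and 2.16% and 2.25% in the second. The *Tmod1* level in MEPs of the double knockout was above that of *Bcor*-/- MEPs (log2 fold change 2.68 ± 1.02, adjusted p = 0.0866), and so was that of *Slc4a1* (6.78 ± 1.24, adjusted p = 0.00665). With 1 library left out the log2 fold change ranged from 0.65 to 4.71 for *Tmod1* and from 4.44 to 9.13 for *Slc4a1*. These were the 2 of 8 genes called in that comparison, at a background of 16.5%. The count was 8 without double knockout replicate 1, 5 without replicate 2 (1 higher and 4 lower) and 1 without either *Bcor*-/- library. In these fits 22.1% of the genes tested were called higher without replicate 1, 20.7% higher and 13.6% lower without replicate 2, and 12.5% and 11.5% higher without *Bcor*-/- replicate 1 and replicate 2.

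The LSK value of each mouse minus its MEP value was used to test whether a genotype acted differently in the cell types. The double knockout effect was more positive in LSK cells than in MEPs for 6 of 8 genes at the unadjusted p, and 11.1% of the 11709 genes tested were called in that direction. *Ank1* (difference of log2 fold changes 3.36 ± 1.02, adjusted p = 0.0455), *Kel* (3.01 ± 0.94, adjusted p = 0.049) and *Sptb* (2.93 ± 0.92, adjusted p = 0.0499) also passed the adjusted p, as did 7.88% of the genes tested in that direction. *Rhd* (4.30 ± 1.42), *Ermap* (3.76 ± 1.29) and *Rhag* (3.68 ± 1.27) had adjusted p-values of 0.0582, 0.064 and 0.0654. Among the markers, 6 of 7 stem and multipotent progenitor, 5 of 5 macrophage and 3 of 6 granulocyte ones were called more negative in LSK cells. More positive were 3 of 4 B cell, 3 of 6 erythroid and 1 of 5 megakaryocyte markers. Some of these markers passed the filter in MEPs only through the double knockout, and their part was not tested. For *Slc4a1* the difference was 1.39 ± 1.01 (adjusted p = 0.342) and for *Tmod1* it was -0.72 ± 0.78 (adjusted p = 0.527). These are the genes that were above all WT libraries in every double knockout library of both cell types, and a p above the threshold does not show that the effects were equal. When only double knockout and WT mice were fitted, 1 of 8 genes, *Sptb*, was called, and without WT replicate 1 the count was 3, where 9.01% and 9.67% of the genes tested were called in that direction. The result also depended on which double knockout mouse was kept. Without replicate 2 all 8 were called more positive in LSK cells (14.6% of the genes tested), and without replicate 1 it was 5 (17.4%), while *Tmod1* was called in the opposite direction (-2.44 ± 0.34, adjusted p = 0.00139), as were 20.8% of the genes tested. For the *Bcor*-/- effect none of the 8 was called, at a background of 11.8% in either direction, although *Rhd* had a difference of 2.82 ± 1.42 (adjusted p = 0.328). *Ermap* had 2.45 ± 1.29 (adjusted p = 0.344), and *Tmod1* pointed the other way with -1.53 ± 0.78 (adjusted p = 0.329). With a variance for each genotype 7 of 8 were called, 6 more positive in LSK cells and 1 more negative, where 16.2% of the genes tested were called in either direction, so this comparison rests on how the spread is estimated.

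**Figure D3:**
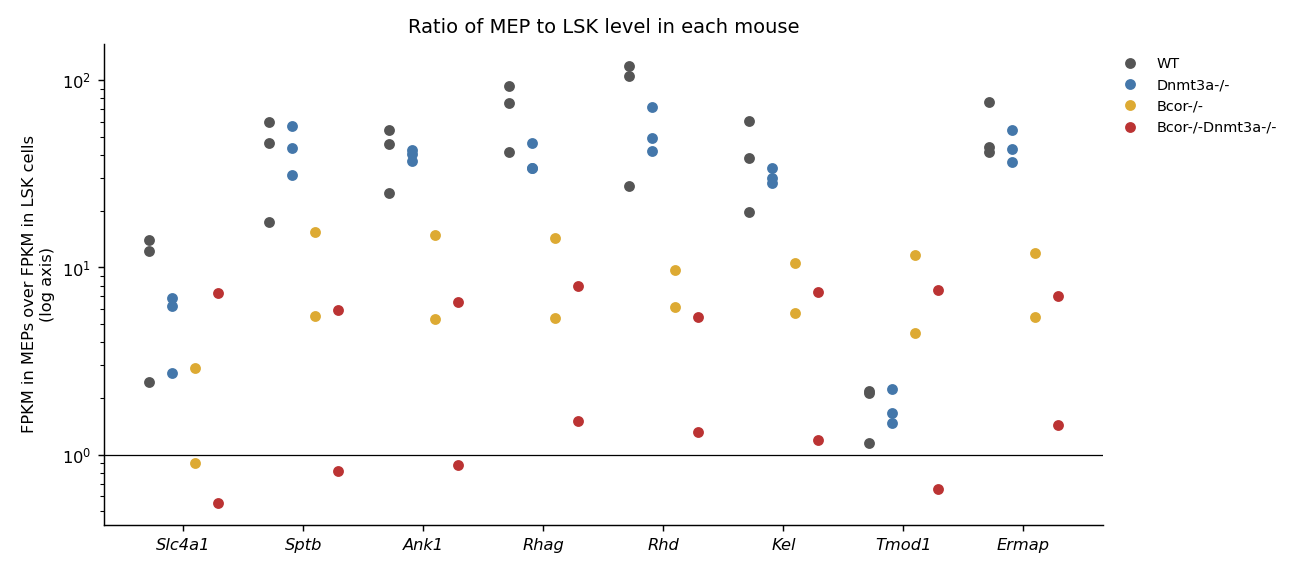
Ratio of the FPKM in MEPs to that in LSK cells of the same mouse (log axis) for each gene, coloured by genotype, with a line at 1. The ratio of *Rhd* is 27.2 to 119 in WT and 1.33 to 5.45 in the double knockout, while that of *Tmod1* is 1.16 to 2.18 in WT, 4.48 and 11.6 in *Bcor*-/- and 0.656 and 7.59 in double knockout mice.

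For 6 of the 8 genes, all but *Slc4a1* and *Tmod1*, the ratio of the MEP to the LSK level was lower in both *Bcor*-/- and in both double knockout mice than in any WT mouse, as it was for 10.7% of the genes tested. This is a description, beside the tests of the same effects above, in which none of the 8 was called for *Bcor*-/-. The ratio of *Tmod1* was 1.16 to 2.18 in WT, 4.48 and 11.6 in *Bcor*-/-, and 0.656 and 7.59 in double knockout mice. In *Dnmt3a*-/- mice every MEP library was above every LSK library for 8 of 8 genes (31.3% of the genes tested), in *Bcor*-/- mice for 7 of 8 (31.0%), *Slc4a1* being the exception, and in double knockout mice for 3 of 8, *Rhag*, *Rhd* and *Ermap* (16.3%). For *Rhd* the ratio within a mouse was 41.7 to 72.1 in *Dnmt3a*-/-, 6.15 to 9.69 in *Bcor*-/- and 1.33 to 5.45 in double knockout mice. In double knockout replicate 1 the levels of *Slc4a1*, *Sptb*, *Ank1* and *Tmod1* were lower in MEPs than in LSK cells, with ratios of 0.552, 0.815, 0.883 and 0.656. The other 4 genes had ratios of 1.20 to 1.51 in that mouse, so each of the 8 transcripts differed by at most 1.81-fold between the gates.

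The mixture of the 8 transcripts also shifted. Their summed FPKM was 11.1 to 27.1 in WT LSK cells, 22.9 to 28.8 in *Dnmt3a*-/-, 61.9 to 134 in *Bcor*-/- and 555 and 807 in double knockout LSK cells. In MEPs it was 658 to 1002 in WT, 733 to 999 in *Dnmt3a*-/-, 709 to 741 in *Bcor*-/-, and 537 and 5684 in the double knockout. *Slc4a1* made up 1.54 to 3.27% of the sum in WT MEPs, 0.366 to 1.10% in *Bcor*-/- MEPs, and 22.9 and 56.2% in double knockout MEPs. In LSK cells it made up 8.67 to 20.2% in WT, 2.25 to 4.31% in *Bcor*-/- and 40.1 and 54.1% in the double knockout. Band 3 was thus the leading transcript of the 8 in every double knockout library. *Ermap* went the other way, from 20.2 to 32.8% in WT LSK cells to 6.63 and 11.6% in the double knockout, and from 28.1 to 34.2% in WT MEPs to 6.59 and 17.4%. *Sptb* and *Ank1*, whose products bind one another, had shares of 4.22 to 5.15% and 7.93 to 10.5% in WT LSK cells and of 5.05 to 5.87% and 5.72 to 6.88% in the double knockout. Even in double knockout replicate 1, whose MEP sum was below WT, *Slc4a1* took 22.9%.

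**Figure D4:**
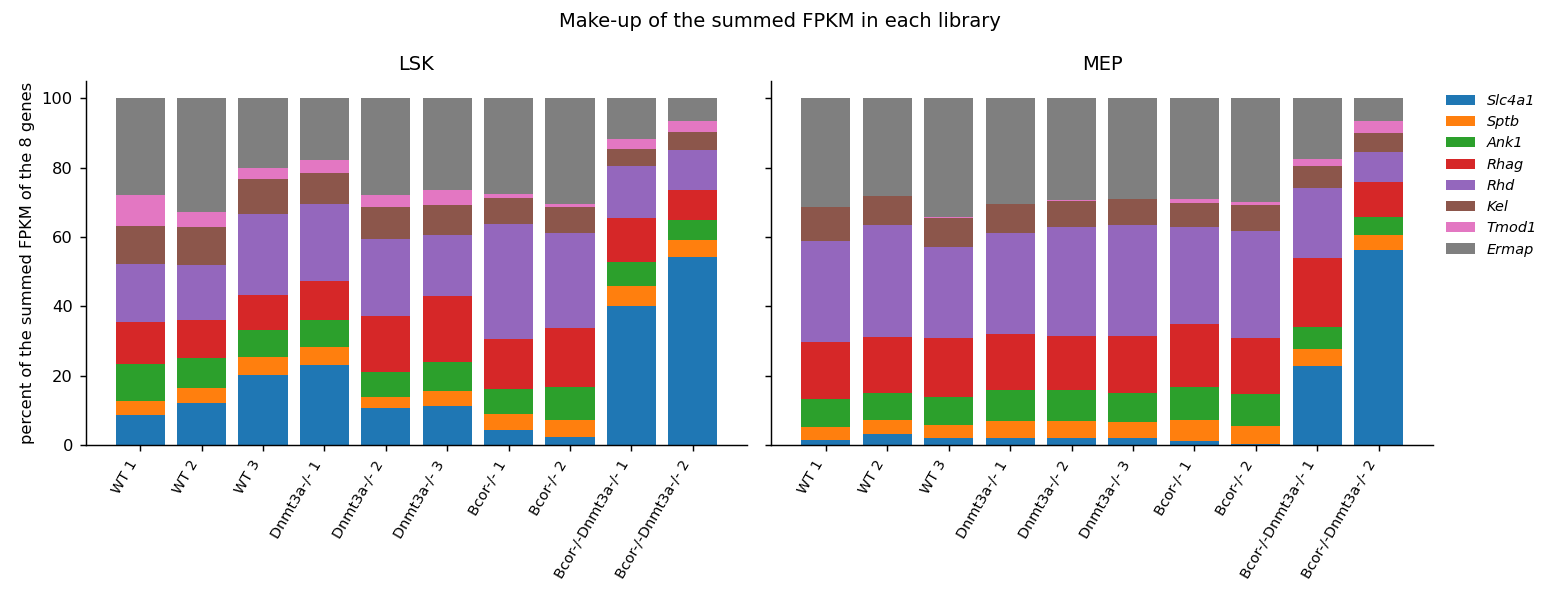
Percent of the summed FPKM of the 8 genes taken by each, stacked to 100, in every LSK library (left) and MEP library (right). *Slc4a1* takes 40.1 and 54.1% in the double knockout LSK libraries against 2.25 to 23.1% in the other LSK libraries, and 22.9 and 56.2% in the double knockout MEPs against 0.366 to 3.27% in the other MEPs.

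Across the 10 libraries of a cell type the 8 genes were compared by Pearson's r of log2(FPKM + 1), as a description over libraries that share genotypes. In LSK cells the 28 pairs had r from 0.755 to 0.996, with a median of 0.956, and *Ank1*, *Sptb* and *Kel* were each other's nearest genes among all genes tested (r = 0.995 to 0.996). *Rhag* was nearest to *Cab39* and *Add2* (both r = 0.991), *Rhd* to *Cldn13* and *Aqp1*, the water channel (r = 0.995 and 0.989), *Ermap* to *Nxpe2* and *Ces2g* (0.995 and 0.994). *Tmod1* was nearest to *Hbq1b*, a globin gene, and *Slfn14* (0.996 and 0.994), and *Slc4a1* to *Clcn3* and *Sema4b* (0.993 and 0.992). In MEPs the range was wider, 0.132 to 0.973 with a median of 0.804, and the neighbours were other genes. *Slc4a1* was nearest there to *Alas2* of haem synthesis and *Hbb-b2* (r = 0.995 and 0.992), and *Hemgn* was among the nearest of *Rhag* (0.994). *Ank1* was nearest to *Mtfr1* and *Tspan33* (0.996 and 0.993), *Sptb* to *Slc43a1* and *Ehbp1l1* (both 0.991), and *Kel* to *Add1*, an adducin, and *Slc3a2* (0.991 and 0.989). *Tmod1* was nearest to *Lbr* and *Rfk* (0.993 and 0.990), *Rhd* to *Pacsin2* and *Gtse1* (0.994 and 0.988), and *Ermap* to *Spire1* and *Abcb4* (0.998 and 0.987).

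A wider list of 31 other red cell membrane and skeleton genes was counted in the same fits. In LSK cells *Dmtn*, dematin that bundles actin, and *Ackr1*, which carries the Duffy antigens, passed the filter only through the double knockout and are left out of the counts. Of the other 29 genes 15 were called higher and 3 lower in double knockout LSK cells, at a background of 15.0% and 13.3% of all genes tested, and their median log2 fold change was 0.74 beside 0.02 for all genes tested. *Dmtn* had 18.5 and 25.9 FPKM in the double knockout and 0.102 to 0.421 in WT. Among the increases was that of *Epb42*, protein 4.2 that binds band 3 (4.33 ± 0.34, adjusted p = 6.28e-05). The 3 lower genes were *Bcam* (-1.59), *Flot1* (-0.92) and the calcium pump gene *Atp2b4* (-0.69, adjusted p = 0.107). In *Bcor*-/- LSK cells 10 of the 29 were called higher and 1, *Atp2b4* (-1.04), lower, at a background of 7.20% and 6.03%. *Epb41*, protein 4.1, had 0.13 ± 0.28 and was not called.

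In double knockout MEPs 29 of the 31 were tested, 12 were called higher and 2 lower, at a background of 18.5% and 12.4%, and the median was 0.58 beside 0.02. The largest increases were those of *Epb42* (2.61 ± 0.99, adjusted p = 0.0724), *Epb41* (2.36 ± 0.99, adjusted p = 0.0983) and *Dmtn* (2.23 ± 0.77, adjusted p = 0.0537). *Epb42* had 19.9 FPKM in replicate 1, close to the 11.3 to 19.4 in WT, and 429 in replicate 2. The lower genes were *Aqp1* (-0.92 ± 0.40, adjusted p = 0.109), with 248.9 FPKM in replicate 1 and 758 in replicate 2, the latter inside the WT range of 657 to 1054, and the mechanosensitive channel *Piezo1* (-0.88 ± 0.16, adjusted p = 0.00419). In *Bcor*-/- MEPs and in *Dnmt3a*-/- cells of both gates none of the list was called. The background was 2.76% in *Bcor*-/- MEPs, and 0.443% and 0.412% in *Dnmt3a*-/- LSK cells and MEPs.

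**Figure D5:**
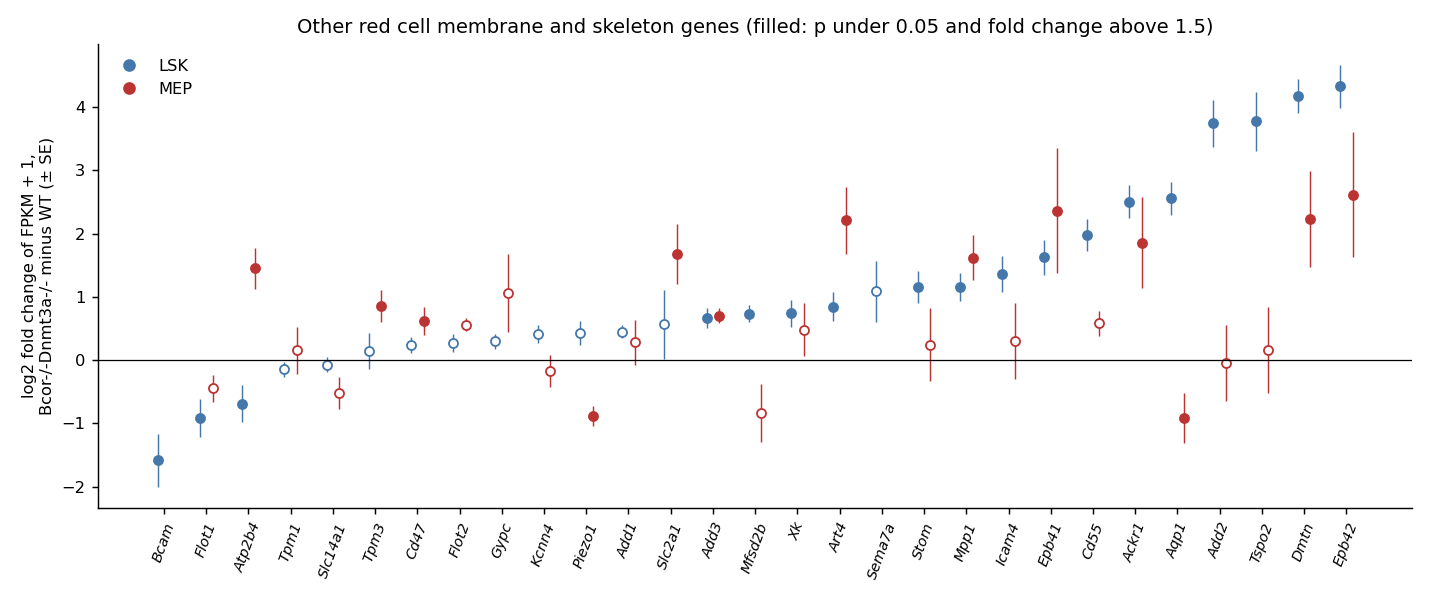
Log2 fold change of FPKM + 1 in the double knockout against WT, with its standard error, for 29 of the other red cell membrane and skeleton genes, ordered by their value in LSK cells (blue) and with MEPs in red. Filled symbols mark genes past the call rule, *Dmtn* and *Ackr1* in LSK cells among them, which passed the filter only through the double knockout, and values run from -1.59 for *Bcam* to 4.33 for *Epb42* in LSK cells.

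Most of the 8 genes have relatives that are used in other tissues, and 14 of these were listed. Of these, 6 were tested in LSK cells and 7 in MEPs. In double knockout LSK cells *Sptbn1*, the β-spectrin of nucleated cells, was the 1 of 6 called (-0.88 ± 0.15, adjusted p = 0.00244), at a background of 13.3% called lower, with a mean of 32.6 FPKM against 60.4 in WT, whereas *Sptb* rose from 0.913 to 36.7. *Sptan1* (-0.37), *Ece1* (0.21), *Slc4a7* (0.31), *Slc4a2* (0.37) and *Tmod3* (0.52) were not called. In MEPs *Btn1a1*, a butyrophilin, passed the filter only through the double knockout, with 1.47 and 4.33 FPKM against a mean of 0.659 over the other 8 libraries, and is left out of the count. Of the other 6 relatives 3 were called higher in double knockout MEPs, at a background of 18.5%, *Sptan1* (1.34 ± 0.43), *Tmod3* (1.29 ± 0.30) and *Sptbn1* (1.07 ± 0.39, adjusted p = 0.0672). *Slc4a7* (0.44), *Ece1* (0.42) and *Slc4a2* (0.15), an anion exchanger of many tissues, were not. None of the relatives tested was called in *Dnmt3a*-/- cells (background 0.443% in LSK cells and 0.412% in MEPs) or in *Bcor*-/- MEPs (2.76%). *Ece1* (-0.72 ± 0.27) was the 1 of 6 called in *Bcor*-/- LSK cells, at a background of 6.03% called lower.

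Gene models can share reads. In the GENCODE annotation of GRCm38, exons of *Tmod1* overlap 1287 bases of *Tstd2* on the opposite strand, those of *Ank1* overlap 862 bases of *Gm15816*, and those of *Sptb* overlap 1 base of *Plekhg3*. Whether the libraries kept strand is not given in the sources used here, so reads of *Tmod1* and *Ank1* cannot be told apart from reads of those partners in the shared bases.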

How the data were processed

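PolyA RNA of sorted LSK cells and MEPs was sequenced, and the authors deposited FPKM of 24315 genes in 10 libraries for each cell type, which were used as deposited. The submitters' processing notes name mm9, STAR 2.5.1b, SAMtools 1.9 and Cufflinks 2.2.1. Neither counts nor depths are in the tables used here, so the precision of single values is unknown.

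The values were log2-transformed with 1 added as pseudocount. Genes averaging 1 FPKM or more across a cell type (11952 in LSK cells, 10933 in MEPs) were fitted with limma 3.58.1 in R 4.3.3, with 1 mean per genotype and a mean-variance trend, and with Benjamini-Hochberg adjustment over all genes tested. Calls required p under 0.05 before adjustment and a change of over 1.5-fold, thresholds the study names without a test. Effects in LSK cells and MEPs were compared on differences within mice. Fold changes on this scale understate the change of low genes. The labels give groups, mice and replicate numbers, and p-values measure the spread between these few mice. The procedure was tested on simulated data, and the outcome is not reported here. Genes, lists and comparisons were chosen with earlier results of these data known. Named are the 8 genes, the 3 largest called changes of the wider list in each direction, all tested relatives, and the 2 genes most alike in each cell type. Some genes that these rules name are not reported here. *Epb41* and *Epb42* are *Epb4.1* and *Epb4.2* in the tables. Figures were drawn with matplotlib. Alternatives covered the pseudocount, the filter, scaling, the variance model, the thresholds, the replicate block and leaving out each library.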

Additional observations from a re-analysis of the deposited data

Results flagged for a closer look

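The double knockout effect differed between LSK cells and MEPs, by limma's test of the difference within mice, for *Sptb* (2.93 on the log2 scale, SE 0.92, adjusted p = 0.0499), for *Ank1* (3.36, SE 1.02, adjusted p = 0.0455) and for *Kel* (3.01, SE 0.94, adjusted p = 0.049). In LSK cells both double knockout libraries were above all WT libraries for each of these genes, and in MEPs replicate 2 was above and replicate 1 below or, for *Sptb*, within the WT range. The adjusted p-values lie close to the threshold, and with a variance for each genotype they were 0.324, 0.303 and 0.306, the highest of any alternative. Without double knockout replicate 1 the differences were 1.51 for *Sptb* (no longer called), 1.93 for *Ank1* and 1.71 for *Kel*, with adjusted p-values of 0.117, 0.0682 and 0.073, and without replicate 2 they were 4.34, 4.79 and 4.31, with adjusted p-values of 0.00441, 0.00422 and 0.0043.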

How the results depend on the processing

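The number of the 8 genes called was compared with 8, 6, 0 and 8 in LSK cells (double knockout, *Bcor*-/- and *Dnmt3a*-/- against WT, and double knockout against *Bcor*-/-), 2, 0, 0 and 2 in MEPs, and 6 and 0 for the double knockout and *Bcor*-/- effects in LSK cells minus MEPs. Calls of the double knockout and of *Bcor*-/- LSK cells against WT held at 8 (7 with a minimum of 5 FPKM, which removes *Tmod1*) and 6 under every alternative. *Tmod1* passed the filter in LSK cells only through the double knockout, so of the 8 in the LSK counts of the double knockout only 7 bear on their stability. With all libraries kept, 8.52 to 30.0% of the genes tested were called in double knockout LSK cells against WT and 3.32 to 16.3% in *Bcor*-/- ones. Double knockout against *Bcor*-/- LSK cells had 7 with a minimum of 5 FPKM, with only the compared genotypes and with the adjusted p, and 6 with 1 variance per genotype. There 28.8%, 21.3%, 25.2% and 22.5% of the genes tested were called.

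For *Dnmt3a*-/- LSK cells 1 gene was called with a pseudocount of 0.1, with only the compared genotypes, with the replicate block and with 1 variance per genotype. Of all genes tested, 0.594%, 0.879%, 0.427% and 1.01% were called in these settings. With 1 variance per genotype and the adjusted p, a pairing of settings chosen after seeing the data, counts were 3 for double knockout against *Bcor*-/- LSK cells, 0 for that comparison in MEPs, 0 for double knockout MEPs against WT, 1 for *Bcor*-/- MEPs, and 0 and 1 for the effects. Of all genes tested, 7.77%, 0.604%, 0.439%, 1.73%, 0.00% and 8.34% were called in these comparisons, in the same order. *Bcor*-/- MEPs had 2 called genes, 1 higher and 1 lower, with only the compared genotypes and with 1 variance per genotype. Of the genes tested, 1.98% and 2.16% were called higher there, and 2.12% and 2.25% lower. Double knockout against *Bcor*-/- MEPs had 1 with quantile normalization, only the compared genotypes, the adjusted p, and the replicate block with the adjusted p (32.0%, 18.4%, 20.3% and 18.5% of the genes tested). The double knockout effect had 3 without a filter and with the adjusted p, 1 with only the compared genotypes, and 0 with the replicate block and the adjusted p. These calls were more positive in LSK cells, as were 7.91%, 7.88% and 9.01% of the genes tested without a filter, with the adjusted p and with only the compared genotypes. With the replicate block and the adjusted p 15.8% of the genes tested were called in either direction. The *Bcor*-/- effect had 1 with a pseudocount of 0.1, 2 with quantile normalization, 2 with only the compared genotypes, 4 without the trend and 7 with 1 variance per genotype. Of the genes tested, 10.8%, 11.1%, 15.0%, 12.4% and 16.2% were called there.

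Leaving out 1 WT or *Dnmt3a*-/- library in turn gave 8 (*Tmod1* among them), 6 and 0 to 2 called genes in LSK cells. These are the double knockout, *Bcor*-/- and *Dnmt3a*-/- against WT. In the same order it gave 2, 0 and 0 in MEPs, and 3 to 6 and 0 to 1 for the double knockout and *Bcor*-/- effects. Double knockout against *Bcor*-/- is left out here, since leaving out a library of these groups leaves 1 in a group. The double knockout effect had 8 more positive in LSK cells without double knockout replicate 2, and 5 more positive and 1, *Tmod1*, more negative without replicate 1. The *Bcor*-/- effect had its 1 call without WT replicate 3. Without 1 WT library 13.7 to 14.8% of the genes tested were called higher in double knockout LSK cells and 15.2 to 17.3% in MEPs. In *Bcor*-/- it was 5.92 to 7.82% and 0.873 to 1.54%. For the effects it was 9.29 to 12.1% and 5.18 to 6.66%. Without 1 library of either genotype 0.284 to 0.626% were called in *Dnmt3a*-/- LSK cells. Without a double knockout or *Bcor*-/- library the counts of these groups rest on 1 library. Over all genes, calls higher and lower in double knockout against *Bcor*-/- were 1884 and 1770 in LSK cells (1582 and 2242 with median centring) and 1809 and 1236 in MEPs (1269 and 2233 with quantile normalization), and the double knockout effect had 1296 and 2144 (1748 and 1691 with quantile normalization). Calls of the double knockout against WT in LSK cells numbered 3383, and 1018 with 1 variance per genotype and the adjusted p.

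Signs turned for values that were not called. *Rhd* in double knockout MEPs against WT was -0.12 with quantile normalization, -0.14 with median centring and -0.0429 with the replicate block, also with the adjusted p, and against *Bcor*-/- MEPs -0.0769 and -0.0145 with the first 2. By the log2 ratio of mean FPKM *Slc4a1* was -0.0419 in *Bcor*-/- LSK cells and -0.12 in *Dnmt3a*-/- MEPs, and *Ermap* was 0.13 in double knockout against *Bcor*-/- MEPs. *Kel* in *Dnmt3a*-/- MEPs was 0.0014 with median centring. Quantile normalization and median centring moved the median of all genes in double knockout MEPs to -0.17 and -0.14.

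With 1 library left out, values ranged from -0.28 to 0.58 for *Slc4a1* and -0.12 to 0.20 for *Tmod1* in *Bcor*-/- LSK cells, and in *Dnmt3a*-/- LSK cells from -0.01 to 0.85 for *Slc4a1*, -0.0661 to 0.29 for *Sptb* and -0.0754 to 0.31 for *Kel*. In double knockout MEPs against WT they ranged from -1.07 to 1.11 for *Rhd*, -1.39 to 0.60 for *Ermap*, -0.18 to 2.97 for *Sptb*, -0.90 to 2.24 for *Ank1*, -0.30 to 2.10 for *Rhag* and -1.02 to 2.13 for *Kel*. Against *Bcor*-/- MEPs they ranged from -0.60 to 2.54 for *Sptb*, -0.98 to 2.15 for *Ank1*, -0.22 to 2.18 for *Rhag*, -0.96 to 1.23 for *Rhd*, -0.65 to 2.51 for *Kel* and -1.18 to 0.81 for *Ermap*. In *Bcor*-/- MEPs they ranged from -0.19 to 0.0702 for *Rhag*, -0.33 to 0.13 for *Rhd* and -0.037 to 0.22 for *Ank1*, and in *Dnmt3a*-/- MEPs from -0.24 to 0.46 for *Slc4a1*, -0.16 to 0.12 for *Kel* and -0.0131 to 0.24 for *Tmod1*. The double knockout effect ranged from -0.47 to 3.25 for *Slc4a1* and -2.44 to 1.0025 for *Tmod1*. The cause of these shifts was not tested.

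Whether replicate numbers pair mice of different genotypes was not settled. In deviations from group means, same-numbered WT and *Dnmt3a*-/- libraries correlated by 0.018, 0.057 and -0.035 in LSK cells and by 0.194, 0.336 and -0.193 in MEPs. Differently numbered ones correlated by -0.178 to 0.174 and by -0.438 to 0.313. So few libraries cannot decide this, and the main fits used no pairing of genotypes. With the replicate block 8, 6, 1 and 8 genes were called in LSK cells, 2, 0, 0 and 2 in MEPs, and 6 and 0 for the effects. Of all genes tested it was 27.0%, 12.8%, 0.427% and 29.6% in LSK cells. In MEPs it was 31.0%, 2.88%, 0.485% and 27.7%, and for the effects 30.4% and 12.4%.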
